A study of Mus musculus with 135 samples.

Results

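Cortical gene expression was compared between stressed, minocycline-treated AA mice and AA mice that had neither. The comparison took every cortex library labelled AA of mice whose title number runs from 5600 to below 6000 or from 9700 to below 10000, with RSD and minocycline in 1 group and with neither in the other. It held 15 RSD + minocycline libraries and 8 untreated libraries, 23 of the 134 libraries of the series with a known group. Of the 15 treated mice, 10 came from the lower and 5 from the higher range of numbers, and of the 8 untreated mice 4 came from each. A further library that met the description, of mouse 9877, was left out because its counts were identical to those of a library labelled SS. Each library came from a different mouse.

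The series measured 2 brain regions, cortex and hippocampus, of male Townes mice, in which human globin genes replace the mouse ones. AA mice carry the normal adult human beta-globin, and SS mice, the sickle cell model, carry the sickle form. All 23 mice were labelled AA. RSD, or repeated social defeat, is a stress in which an aggressive male intruder was placed in the home cage of resident males on consecutive days. Minocycline was given in the drinking water from the day before RSD began until its end, and the untreated mice drank plain water. No AA mouse of these number ranges had RSD alone or minocycline alone, so effects of defeat and of the drug cannot be told apart.

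Minocycline is a tetracycline antibiotic that enters the brain and is known for damping the activation of microglia, the resident macrophages of the brain. Neurons that fire strongly switch on immediate early genes, such as those of the Fos and Egr families of transcription factors, within minutes, and the products of these genes help to adjust synapses. Social stress raises glucocorticoids, whose receptor acts on target genes such as Fkbp5, a brake on the receptor itself, in neurons and glia alike. In RNA of a whole tissue, fewer cells of a type and less RNA per cell cannot be told apart.

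Reads on genes ranged from 26537183 to 44489756 in the untreated and from 19519114 to 83512852 in the treated libraries. Levels are given as CPM, counts per 1000000 reads on genes after scaling of the libraries, and differences as log2 fold changes of treated over untreated mice with their standard errors. A gene is said to have risen or fallen where its adjusted p from edgeR's quasi-likelihood test was under 0.05. Correlations of log2 CPM between pairs of the 23 libraries had a median of 0.986, with a lowest value of 0.953.

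The dissection was checked with marker genes. Slc17a7, the vesicular glutamate transporter of cortical excitatory neurons, had a median of 1219 CPM and was lowest in the treated mouse 9851, at 686.9 CPM. Prox1 of the dentate gyrus had 18.2 CPM in the cortex and 91.8 in the hippocampus of the same mice, and Zbtb20, abundant in hippocampal neurons, had 56.04 and 231 CPM. Drd1, a dopamine receptor abundant in the striatum, had a median of 8.97 CPM and stood highest in the untreated mouse 5844, at 27.2, and in the treated mice 5646 and 5648, at 20.2 and 15.1 CPM. The cortical label was borne out by these markers, while the amount of striatal RNA differed between mice.

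A few libraries stood apart. Alas2, an enzyme of haem synthesis in young red blood cells, had a median of 95.9 CPM over the 32 SS cortex libraries of the series and 5.02 CPM over 34 AA ones. In the 23 libraries here its median was 4.99 CPM, but the untreated library labelled AA of mouse 5844 had 99.0, the treated library labelled AA of mouse 5853 had 50.8 and that of mouse 5898 had 20.6, with no other above 7.93 CPM. SS libraries ranged from 6.28 to 198.6 CPM, so the first pair lay well inside the SS range. The untreated mice 9838 and 5845 stood apart in another way, in reads on pseudogenes. These made up 0.583% and 0.608% of their reads on genes, against 0.175% to 0.278% in the other 21 libraries. In their libraries 24.5% and 25.9% of all reads did not map, with at most 20.02% elsewhere, and 3.32% and 3.52% of reads mapped to several places, with at least 4.404% elsewhere. Values without mice 9838 and 5845 are given beside the main results, and values without mice 5844 and 5853 for Iqgap2 and Egr3. The treated mouse 9851 had 10.4% of its reads on genes on mitochondrial genes, with at most 7.72% elsewhere among the 23. In it 13.9% of all reads fell outside genes, with at most 11.3% elsewhere, and Hsp90ab1, a chaperone, had 491.9 CPM, with at least 1194 CPM elsewhere. No analysis left out mouse 5898 or 9851 by name apart from those that omit 1 mouse at a time.

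The sequence of 1 such pseudogene is shown beside its match to illustrate how close a copy can be. Gm13341 is a copy of part of the mitochondrial genome on chromosome 2 (chr2:22477303-22477974, minus strand, GRCm39), and mt-Co2, which encodes a subunit of cytochrome c oxidase, lies in the mitochondrial genome itself (chrM:7013-7696, plus strand). The first 200 bases of each are printed 5′ to 3′, with capitals at the 2 positions where they differ, an identity of 99.0%.
Gm13341: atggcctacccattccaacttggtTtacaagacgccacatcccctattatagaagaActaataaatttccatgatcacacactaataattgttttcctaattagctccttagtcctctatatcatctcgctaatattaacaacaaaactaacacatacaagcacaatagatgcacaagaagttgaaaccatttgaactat
mt-Co2: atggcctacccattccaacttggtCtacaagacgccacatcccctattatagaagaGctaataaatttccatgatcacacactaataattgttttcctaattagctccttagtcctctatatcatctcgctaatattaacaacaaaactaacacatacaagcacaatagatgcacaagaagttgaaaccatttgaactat
A read that covers neither position matches both genes equally well, and reads that map to several places are tallied apart and counted on no gene.

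Of 18039 genes tested, 43 fell in treated mice (0.238% of the genes tested) and 0 rose (0.0%). Without adjustment, 1078 genes had p under 0.05 (5.98%), with 342 higher (1.9%) and 736 lower (4.08%). The 43 were mostly not ordinary genes: 37 were pseudogenes, which were 86.0% of the genes called and 4.09% of the genes tested, and 3 were short messages of the mitochondrial genome, mt-Atp8, mt-Nd4l and mt-Nd3. The remaining 3 were Iqgap2, Egr3 and AK157302. Once the untreated mice 9838 and 5845 were left out, 0 of 18097 genes were called by the quasi-likelihood test of edgeR, with 191 higher (1.06%) and 281 lower (1.55%) at an unadjusted p under 0.05. No gene of the 18039 separated the groups fully, since in every one the CPM of treated and untreated mice overlapped.

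The 40 pseudogenes and mitochondrial messages were highest in those same 2 untreated mice, by a wide margin in some and a narrow one in others. Gm13341 had 225.9 CPM in mouse 9838 and 251 in mouse 5845. The other untreated mice had at most 5.43 CPM, and the treated mice ranged from 1.13 through a median of 2.86 to 5.16 CPM. Its log2 fold change was −4.49 ± 0.73 with all mice and −0.40 without the pair. Apart from the pair, the ranges of treated and untreated mice overlapped.

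For mt-Atp8, a small subunit of ATP synthase, the pair had 40.2 and 42.9 CPM, the other untreated mice at most 1.53 CPM and the treated mice 0.0496 to 0.932 CPM. Its log2 fold change was −4.89 ± 0.78 (adjusted p = 0.00785), and −1.23 without the pair (unadjusted p = 0.0170). The complex I subunit mt-Nd4l had 31.99 and 36.3 CPM in the pair and 0.986 to 3.595 CPM in treated mice (log2 fold change −2.49 ± 0.49, and −0.20 without the pair). Its neighbour mt-Nd3, of the same complex, had 28.8 and 33.7 CPM in the pair and 0.959 to 5.32 CPM in treated mice (log2 fold change of mt-Nd3 −2.20 ± 0.46, and −0.26 without the pair). Among the 13 mitochondrially encoded messages 3 fell, 10 did not pass the test, and the median log2 fold change was −0.02, or 0.08 without the pair.

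Over all 40 genes the log2 fold changes ran from −4.89 to −1.42 with a median of −2.69. Without the pair, 34 of them were tested, their median was −0.39, and 8 had an unadjusted p under 0.05, against 1.06% of all genes higher and 1.55% lower. The 40 genes were picked as called lower in a test that included these remaining libraries. Their median and count are therefore not an independent test against all genes. In 41 of the 43 genes called, AK157302 included, both mice of the pair exceeded every other library. This held for 427 of the 18039 genes tested (2.37%) and for 295 of the 737 pseudogenes (40.03%), so the pair was highest in many more pseudogenes than the 37 called. AK157302, a short gene at chr13:21679393-21681316, had 6.13 and 6.17 CPM in the pair, a log2 fold change of −1.86 ± 0.38 (adjusted p = 0.0299), and −0.48 without the pair.

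**Figure D1:**
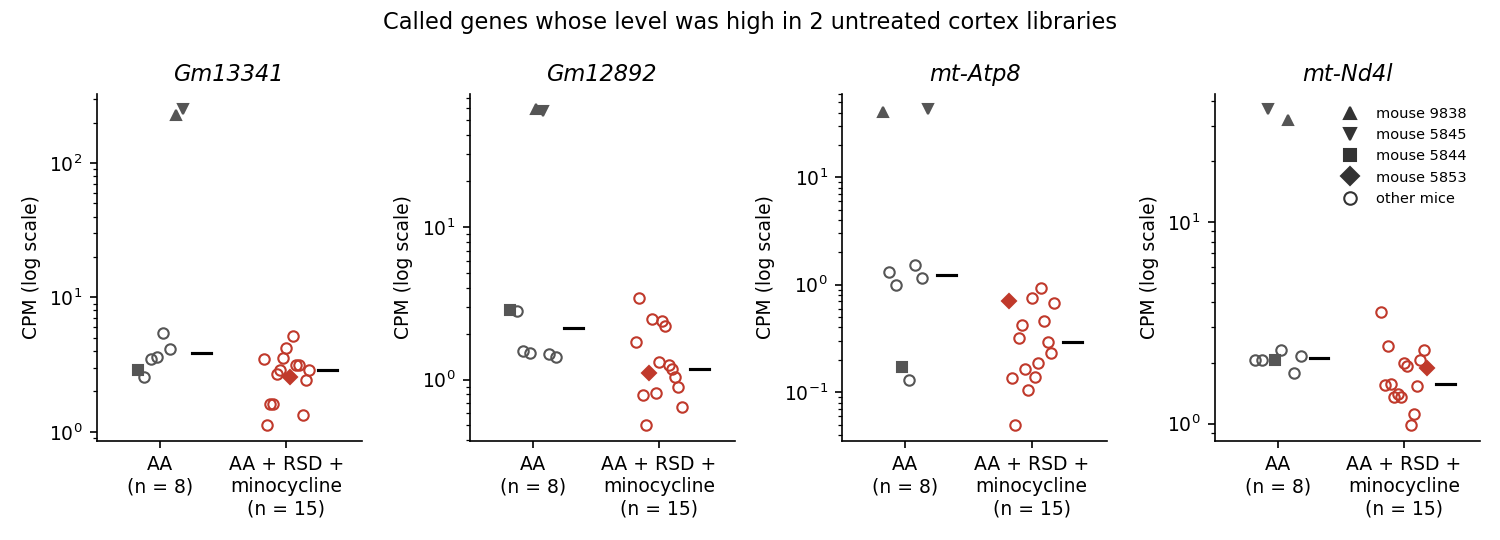
CPM on a log axis of the pseudogenes Gm13341 and Gm12892 and the mitochondrial messages mt-Atp8 and mt-Nd4l, with 1 point per mouse, untreated and treated mice side by side, and a short line at each group's median. The untreated mice 9838 and 5845, drawn as filled triangles, lie far above all others, at 225.9 and 251 CPM for Gm13341 against at most 5.43 CPM.

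Most of the pseudogenes called share sequence with abundant messages. Of the 43 genes, 39 had at least 10% of their windows of 50 bases in common with the longest transcript of another gene, against 10.6% of the genes tested, and the median share was 36.5% against 0. Pseudogenes were 37 of the 43 but 4.09% of the genes tested, so this does not set called pseudogenes against other pseudogenes. The share among all 737 pseudogenes tested is not given here. Gm13341 shared 35.96% of its windows with mt-Co2, and Gm12892, a processed pseudogene on chromosome 4, shared 19.96% with Ckb, the brain creatine kinase. Others matched Tubb4b (a beta-tubulin), Eef2 and Eef1a1 (elongation factors of translation), Glul (glutamine synthetase), Fth1 (ferritin heavy chain), Ywhah (a 14-3-3 protein) and Ddx5 (an RNA helicase). The best match was a protein-coding gene for 26 of the 37 pseudogenes and another pseudogene for the rest, some of these at low levels, such as Gm12918 for Gm15710 at 0.723 CPM. The 25 different protein-coding genes had percentiles by CPM among the genes tested from 50.4 upward, with a median of 98.6.

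None of those 25 genes was called, and their log2 fold changes had a median of −0.01, with a range from −1.38 for mt-Co2 to 0.31. mt-Co2 itself had 202.6 and 218.7 CPM in the pair, at most 37.7 in the other untreated mice and 16.6 to 53.7 CPM in treated mice. Its log2 fold change was −1.38 ± 0.39 (adjusted p = 0.166) and turned to 0.09 without the pair. The 26 pseudogenes, picked because they passed the test, thus matched protein-coding genes that did not pass. The reverse held for mt-Nd4l and mt-Nd3, which passed. The pseudogenes that share 98.8% and 98.0% of their windows, Gm10222 and Gm28438, did not (adjusted p = 0.459 and 0.704).

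High counts of the same 40 pseudogenes and mitochondrial messages occurred elsewhere in the series. Per 1000000 reads on genes, here without scaling of the libraries, these 40 genes summed to 1343 reads in mouse 9838 and 1501 in mouse 5845, and to 27.5 to 75.7 in the other 21 libraries compared. Among all 68 cortex libraries, 12 lay between 590.5 and 2407 and 56 between 20.7 and 75.7, with none in between. The high libraries belonged to 7 groups, namely 2 AA, 1 AA + RSD, 3 AA + RSD + minocycline, 1 AA + minocycline, 2 SS + RSD, 1 SS + RSD + minocycline and 2 SS + minocycline. Only the 2 AA ones fall in the number ranges compared here. By position, 9 of the 12 lay in columns 1 to 10 of the deposited table, with mice 9838 and 5845 in columns 9 and 10. The others lay in columns 55, 59 and 61. In the hippocampus 14 of 66 libraries were high, and all 12 of these mice were among them. High cortex libraries had 10.8% to 36.2% of reads not mapped and 2.89% to 4.88% mapped to several places. The rest of the cortex libraries had 4.01% to 20.02% and 3.91% to 8.62%. The part of those shares and of the table position in the counts of the 40 genes was not tested.

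**Figure D2:**
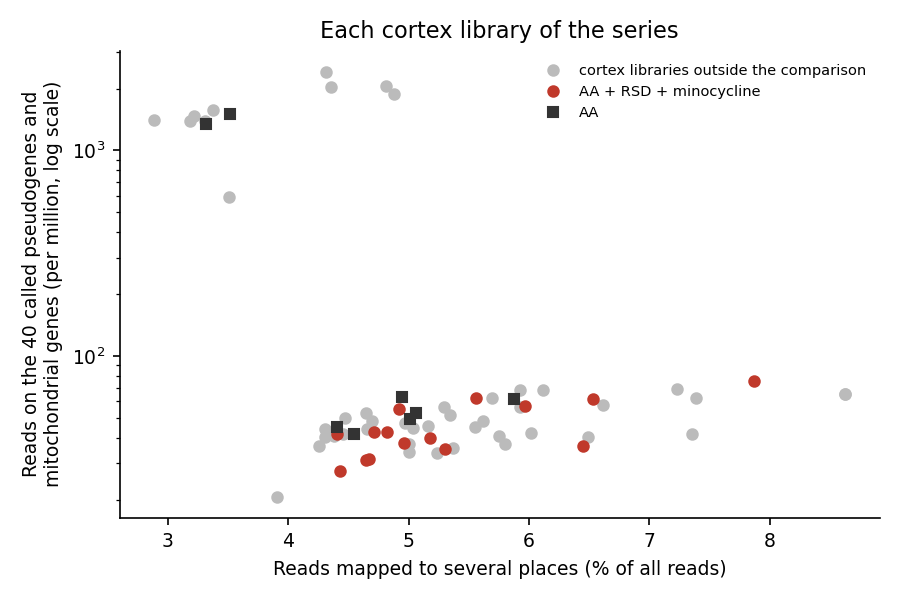
Unscaled reads per 1000000 reads on genes for the 40 pseudogenes and mitochondrial messages called lower (log axis) against the percentage of all reads mapped to several places, for each of the 68 cortex libraries (squares, untreated AA mice compared; red, treated AA mice compared; grey, all others). The 12 high libraries, at 590.5 or more, include mice 9838 and 5845, the 2 squares at the top left.

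Iqgap2 and Egr3 were lower in treated mice by as much without that pair as with it, though neither call held without it. Iqgap2 encodes a large scaffold protein that binds actin and small GTPases (chr13:95763682-96028991, minus strand, GRCm39). Its CPM was 30.8, 37.2, 39.2, 45.2, 46.9, 47.2, 47.7 and 53.7 in the untreated mice, and 24.6 at the lowest, 30.4 at the median and 37.7 at the highest in the 15 treated mice. The untreated mice 5844 and 9836, at 30.8 and 37.2 CPM, lay within the treated range, and the other 6 above it. All 15 treated mice lay below the untreated median.

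The mean level of Iqgap2 was 43.5 ± 7.25 CPM (SD, n = 8) in untreated and 30.2 ± 3.07 CPM (SD, n = 15) in treated mice. It fell by 30.6%, a log2 fold change of −0.53 ± 0.08 with an adjusted p of 0.00785. Without mice 9838 and 5845 the log2 fold change was again −0.53, with an adjusted p of 0.105. Without mouse 5844, the lowest of the untreated mice and the one with Alas2 at the SS level, and without mouse 5853, it was −0.59 (adjusted p = 0.000960), and without all 4 of these libraries −0.63 (adjusted p = 0.00423), when it was the 1 gene called. Within the lower number range alone it was −0.56 ± 0.11 and within the higher −0.46 ± 0.13, and it was called in neither.

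Egr3, an immediate early transcription factor that neuronal activity and growth factors switch on (chr14:70314350-70320063, plus strand), had 111.0, 141.9, 159.9, 168.3, 176.1, 197.4, 202.1 and 228.7 CPM in untreated mice. In treated mice the lowest value was 61.2, the median 87.2 and the highest 149.4 CPM. The groups overlapped through the untreated mice 5844 and 9839, at 111.0 and 141.9 CPM, and the other 6 untreated mice lay above every treated mouse. The mean was 173 ± 36.96 CPM (SD, n = 8) against 102 ± 28.6 CPM (SD, n = 15), and Egr3 fell by 41.3%, a log2 fold change of −0.77 ± 0.15 (adjusted p = 0.0220). The call depended on the libraries used: the log2 fold change was −0.77 without mice 9838 and 5845 (adjusted p = 0.495), −0.88 without mice 5844 and 5853 (adjusted p = 0.0118), and −0.93 without mice 9838, 5845, 5844 and 5853 (adjusted p = 0.140).

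The columns of the 23 libraries compared fell into 2 blocks of the deposited table that differed in the share of reads outside genes. It was 8.13% to 13.9% in the earlier columns, with 6 untreated and 9 treated mice. In the later ones, with 2 untreated and 6 treated mice, it was 4.35% to 5.87%. Other cortex libraries of the series did not all keep to these ranges. The 2 blocks also lay apart on the first principal component of log2 CPM, the axis of largest variance, with 31.7% of it. Values on this axis ran from −46.6 to −15.8 in the earlier and from 25.7 to 58.1 in the later columns. With the block as a term in the model, Iqgap2 stayed called (log2 fold change −0.49, adjusted p = 0.0101) and Egr3 did not (−0.73, adjusted p = 0.0991). In the earlier columns alone Iqgap2 changed by −0.59 (adjusted p = 0.00742) and Egr3 by −0.80 (adjusted p = 0.0983). In the later columns, with mouse 5844 as 1 of the 2 untreated mice, the values were −0.22 and −0.53, and neither was called.

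Other immediate early genes did not pass the test. Of the 26 immediate early genes fixed as a list, 1 (Egr3) fell, 25 were not called, and 19 had a log2 fold change below 0, as did 50.4% of all genes tested. The list's median was −0.11 with all mice and −0.01 without mice 9838 and 5845, against a median of −0.00112 over all genes tested. At an unadjusted p under 0.05 4 of the 26 were lower and 0 higher, and without the pair again 4 and 0, against 4.08% of all genes lower with all mice and 1.55% without the pair. The 4, chosen here after their values were seen, were Egr3, Homer1, Nptx2 and Fosb.

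Homer1, a scaffold of glutamate receptors with a short form that activity induces, had 120.2, 170 and 259 CPM as the lowest, median and highest of the untreated mice and 75.1, 105 and 179 CPM in treated mice. Of the treated mice 14 of 15 were below the untreated median, and the log2 fold change was −0.65 ± 0.15 (adjusted p = 0.0548), with calls under 7 of 18 alternative analyses. Nptx2, a secreted pentraxin that gathers AMPA receptors at synapses, ran from 39.9 to 79.8 CPM in untreated and from 18.8 to 55.99 CPM in treated mice (−0.54 ± 0.16, adjusted p = 0.202). Fosb, a partner of Jun proteins in AP-1, ran from 11.4 to 20.3 CPM and from 5.95 to 17.7 CPM (−0.50 ± 0.16, adjusted p = 0.289). Without mice 9838 and 5845 the log2 fold changes of Homer1, Nptx2 and Fosb were −0.69, −0.60 and −0.52, and the groups overlapped in each of the 3 genes.

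Bdnf, the neurotrophin that activity induces in cortical neurons, had a median of 29.2 CPM in untreated and 22.3 CPM in treated mice, with a log2 fold change of −0.32 ± 0.13 (adjusted p = 0.591). Of its exonic bases 13.5% lie opposite a gene on the other strand. Snap25, a protein of the vesicle fusion machinery at synapses, had medians of 3130 and 2693 CPM (−0.21 ± 0.09, adjusted p = 0.754). In the list of 22 genes of neurotrophins and synaptic plasticity, which also holds Homer1, 0 were called, 3 were lower and 1 higher at an unadjusted p under 0.05, against 4.08% and 1.9% of all genes tested, and the median was −0.10.

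**Figure D3:**
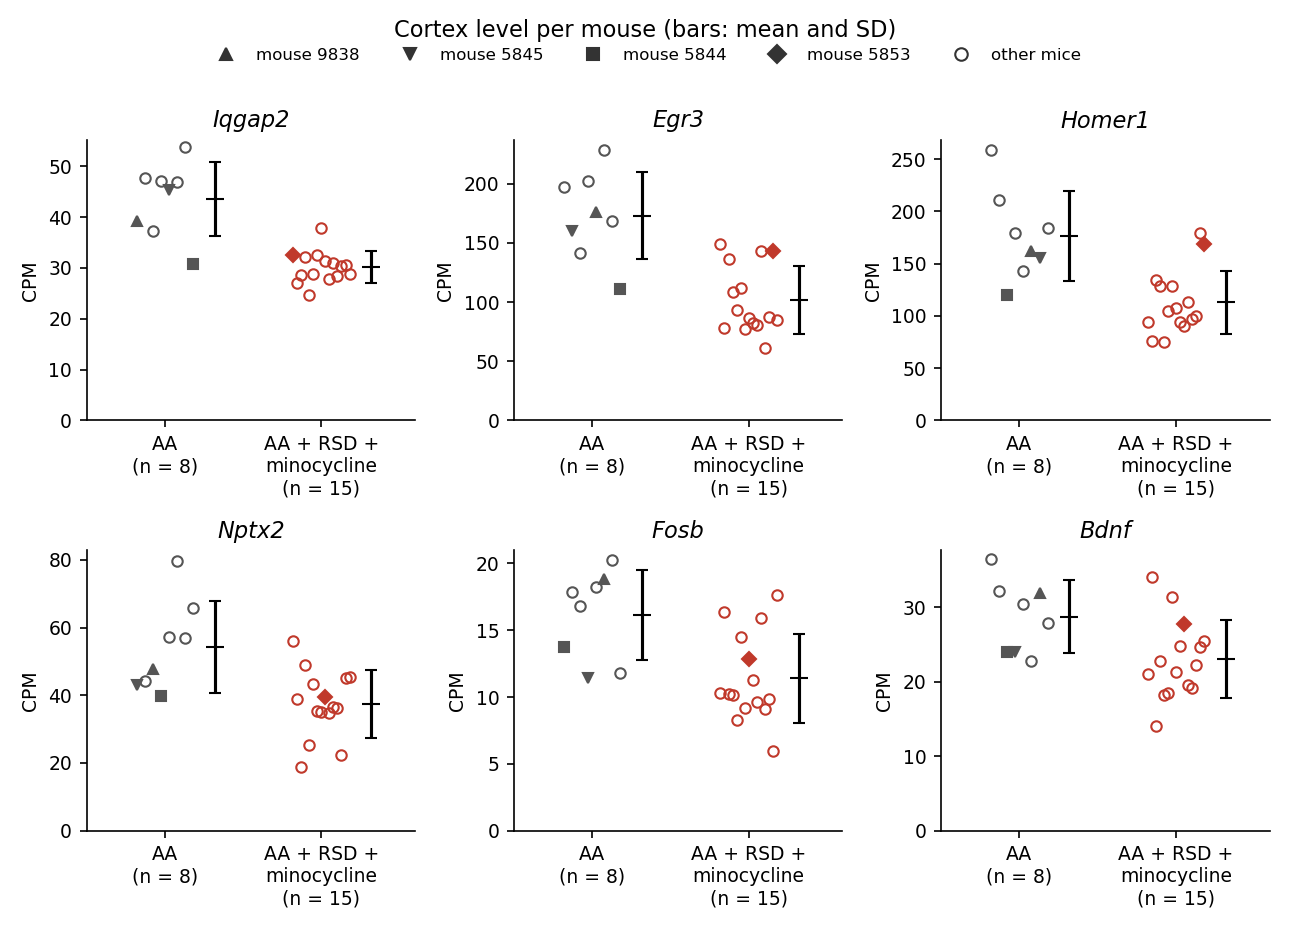
CPM of Iqgap2, Egr3, Homer1, Nptx2, Fosb and Bdnf in each mouse, with bars at the mean ± SD of 8 untreated and 15 treated mice and filled marks for mice 9838, 5845, 5844 and 5853. The groups overlap in every panel, Egr3 with 111.0 to 228.7 CPM against 61.2 to 149.4, and mouse 5844 is the lowest untreated mouse for Iqgap2, Egr3 and Homer1.

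No target of glucocorticoids passed the test over all 23 libraries, though in 18 alternative analyses Plin4 was called in 5, Fkbp5 in 4 and Klf9 in 1. Of 20 genes in the list 19 were tested, 0 were called, 17 had a log2 fold change below 0, as did 50.4% of all genes tested, and the median was −0.21, or −0.17 without mice 9838 and 5845. At an unadjusted p under 0.05 7 of the 19 were lower (Fkbp5, Sgk1, Klf9, Klf15, Cdkn1a, Plin4 and Hif3a) and 0 higher, against 4.08% lower of all genes tested. Without the pair 4 were lower, against 1.55% of all genes.

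Fkbp5, the chaperone that restrains the glucocorticoid receptor, had 27.9, 47.8 and 59.7 CPM as lowest, median and highest in untreated mice and 23.5, 32.8 and 49.6 CPM in treated mice. The log2 fold change was −0.45 ± 0.11 (adjusted p = 0.0881), and 14 of 15 treated mice lay below the untreated median. Klf9, a transcription factor induced by glucocorticoids and thyroid hormone, had medians of 251.8 and 216.9 CPM, and all 15 treated mice lay below the untreated median (−0.27 ± 0.08, adjusted p = 0.174). Without the pair the values were −0.38 for Fkbp5 and −0.25 for Klf9, and neither gene separated the groups fully.

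Plin4, a coat protein of lipid droplets, varied most among these genes, from 8.21 to 90.0 CPM in untreated and from 6.62 to 40.5 CPM in treated mice (−1.40 ± 0.35, adjusted p = 0.0847). Mouse 5845 held its highest value and mouse 5844 the lowest of the untreated group, and 39.1% of its exonic bases lie opposite Hdgfl2. Sgk1, a kinase that glucocorticoids induce, had a log2 fold change of −0.50 ± 0.17 (adjusted p = 0.399), which came to −0.30 without the pair. Its highest value, 177.6 CPM, was that of mouse 9838. Cdkn1a, an inhibitor of the cell cycle, had −0.52 ± 0.17 (adjusted p = 0.349), or −0.55 without the pair.

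Microglial genes, which bear on the drug's known action, were not called in either direction. Of 18 genes of homeostatic microglia 0 were called and 16 had a log2 fold change above 0, while 50.4% of all genes tested lay below 0. The list's median was 0.14, or 0.07 without mice 9838 and 5845. Trem2, a receptor of microglia for lipids and debris, had medians of 10.3 CPM in untreated and 12.7 CPM in treated mice (0.27 ± 0.12, unadjusted p = 0.0405, adjusted p = 0.785). It was the 1 gene of the list with an unadjusted p under 0.05, against 5.98% of all genes tested in either direction. Without the pair the p of Trem2 was 0.147.

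Csf1r, the receptor that microglia need to survive, had medians of 92.9 and 92.6 CPM, and its log2 fold change of −0.01 had a 95% interval from −0.29 to 0.27. The treated mice ran from 41.01 CPM in mouse 9851 to 153.4 CPM in mouse 5646, with the next values inward at 79.4 and 122.6 CPM. The untreated mice ran from 84.5 to 128.6 CPM. Summed over the list, microglial genes came to 536 ± 111 CPM (SD, n = 15) in treated and 498 ± 96.9 CPM (SD, n = 8) in untreated mice (2-sided exact permutation p = 0.429). The difference of 38.03 CPM came to 73.7 without mice 5844 and 5853 (exact permutation p = 0.117) and to 18.5 without mice 9838 and 5845 (exact permutation p = 0.734).

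Of 18 tested genes of microglial activation and cytokines 0 were called. At an unadjusted p under 0.05 Il1a was higher and Ptgs2 lower, against 1.9% of all genes tested higher and 4.08% lower. Without mice 9838 and 5845 0 were higher and 1 lower, against 1.06% and 1.55% of all genes. Ptgs2, the inducible cyclooxygenase, which cortical neurons also express with activity, ran from 14.6 to 20.7 CPM in untreated and from 5.67 to 17.4 CPM in treated mice (−0.46 ± 0.14, adjusted p = 0.225). Only 5 of 21 genes of peripheral immune cells passed the filter on low counts, with Ighm, the heavy chain of IgM, the most abundant, and their sum was 40.7 ± 14.96 CPM in treated and 35.4 ± 7.37 CPM in untreated mice (exact permutation p = 0.363).

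Among interferon-induced genes none passed the test. Of 21 tested, 0 were called, 18 had a log2 fold change above 0, the median was 0.20, and 5 were higher at an unadjusted p under 0.05 (Ifit1, Ifit3, Oasl2, Usp18 and Gbp3), against 1.9% of all genes tested. Ifit3, an antiviral protein that binds foreign RNA, had medians of 4.55 CPM in untreated and 7.02 CPM in treated mice (0.58 ± 0.20, adjusted p = 0.386). Within the lower number range alone the log2 fold change of Ifit3 was 0.89 and within the higher 0.0063, with calls in neither. The 6 treated mice of the later columns, all of the lower range, had 8.07 to 12.8 CPM, and the untreated mice there 4.91 and 8.03 CPM. In the earlier columns treated mice had 4.08 to 8.38 CPM and untreated mice 3.45 to 5.05 CPM. Without mice 9838 and 5845, the median of the list was 0.14 and 1 gene was higher at an unadjusted p under 0.05, against 1.06% of all genes.

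Genes of energy metabolism and translation shared a direction with small values. All 23 nuclear genes of complex I and ATP synthase had a log2 fold change above 0, with 0 called and a median of 0.20, or 0.13 without the pair. At an unadjusted p under 0.05 4 of the 23 were higher, against 1.9% of all genes tested, and 0 without the pair. All 30 cytosolic ribosomal protein genes did as well, with a median of 0.22, or 0.15 without the pair, and 0 had an unadjusted p under 0.05. These levels moved with the table columns. The summed CPM of the ribosomal protein genes lay between 6887 and 8603 in the 8 libraries of the later columns and in the treated mouse 9851, and between 4029 and 4888 in the other earlier libraries of both groups. The later columns held 6 of the 15 treated and 2 of the 8 untreated mice, and with the table position as a term the median log2 fold change, cytosolic ribosomal proteins, was 0.12, and that of nuclear complex I and ATP synthase likewise 0.12. In the list of 23 nuclear-retained RNAs and splicing regulators, which tends to move with RNA quality, 20 were below 0, with a median of −0.06. The part of RNA quality in these values was not tested.

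**Figure D4:**
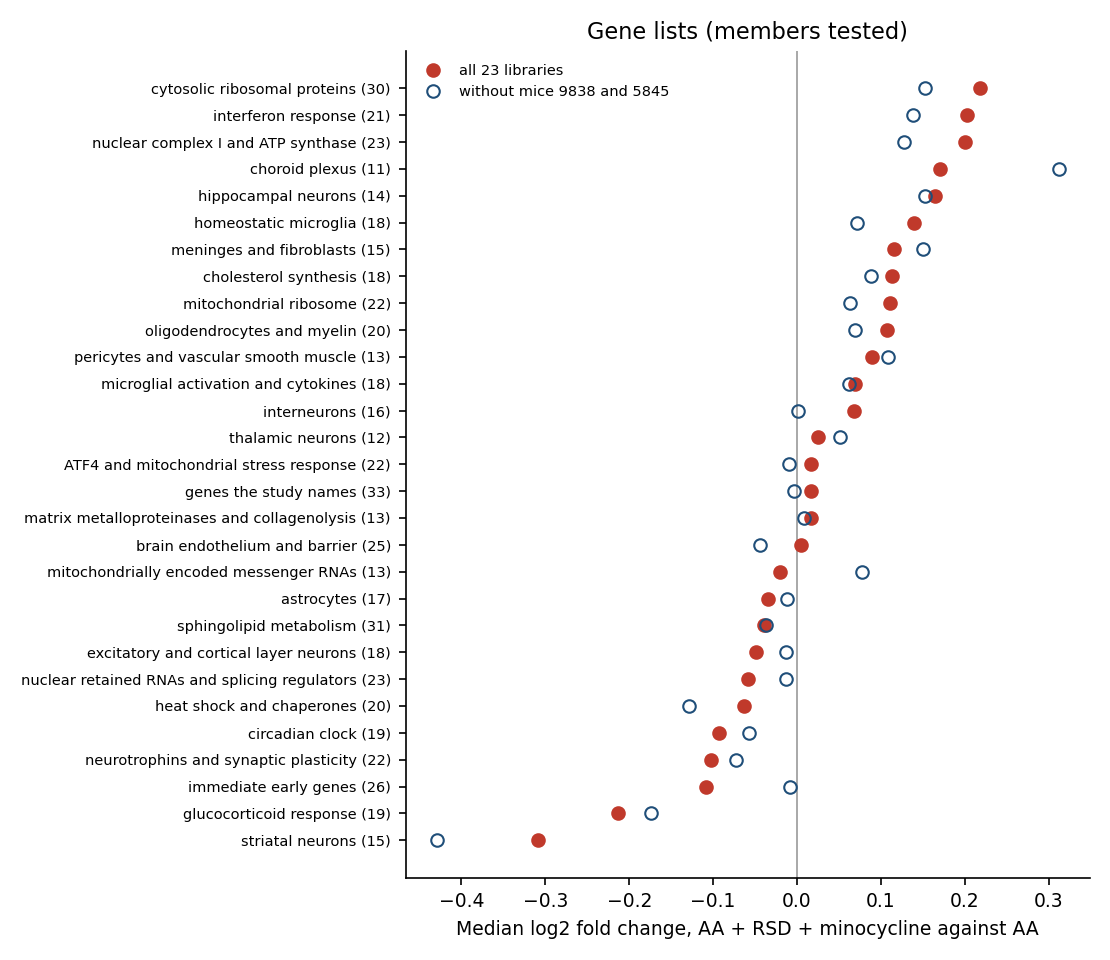
Median log2 fold change of treated over untreated mice for each gene list with at least 10 tested members (number in brackets), over all 23 libraries in filled and without mice 9838 and 5845 in open circles. Over all libraries the striatal list (median −0.31) and the glucocorticoid list (−0.21) lie lowest, and the respiratory chain (0.20), interferon (0.20) and ribosomal protein lists (0.22) highest. The striatal median is −0.43 without mice 9838 and 5845 and just above 0 without mice 5844 and 5853.

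Pde10a and Pde7b, phosphodiesterases abundant in striatal neurons, had lower values in treated mice and were not called over all 23 libraries, but in 6 and 5 of 18 alternative analyses. Pde10a had 72.7, 114.5 and 155.5 CPM as lowest, median and highest in untreated mice, the highest in mouse 5844, and 42.7, 79.2 and 97.7 CPM in treated mice. Its log2 fold change was −0.60 ± 0.14 (adjusted p = 0.0548), and −0.61 without mice 9838, 5845, 5844 and 5853. Pde7b had −0.52 ± 0.13 (adjusted p = 0.0702). In the list of 15 striatal genes 0 were called and 12 were below 0. The median was −0.31, or just above 0 without mice 5844 and 5853 and −0.43 without mice 9838 and 5845. At an unadjusted p under 0.05 1 gene was lower, or 3 without mice 9838 and 5845, against 4.08% and 1.55% of all genes. The summed CPM was 468 ± 161 in treated and 542 ± 202 in untreated mice (exact permutation p = 0.380). Without mice 5844 and 5853 the sums were 465.8 and 473 CPM (exact permutation p = 0.934), and without mice 9838 and 5845 468 and 580.4 CPM. Adcy5, an adenylyl cyclase, was the most abundant gene of the list, and mouse 5844 had the highest sum, 1022 CPM. The part of dissection in these values was not tested.

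The next genes by p in each direction were not called by the quasi-likelihood test over all 23 libraries, though in 18 alternative analyses Map3k6 was called in 7, AW047730 in 6, Gatsl3 in 5, and Fgfrl1 and Myo18b in 1 each. Map3k6, a stress-activated kinase, had medians of 3.83 and 2.25 CPM (−0.76 ± 0.17, adjusted p = 0.0548), and Gatsl3, a sensor of arginine in the mTORC1 pathway, had 3.24 and 2.27 CPM (−0.54 ± 0.12, adjusted p = 0.0548). Among higher values AW047730 came first, with medians of 13.2 and 16.4 CPM (0.39 ± 0.10, adjusted p = 0.0913). All 15 treated mice were above the untreated median, but 33.8% of its exonic bases lie opposite AI849053. Fgfrl1, a receptor for fibroblast growth factors that lacks a kinase, had 0.30 ± 0.09 (adjusted p = 0.219). Fam219b, Flywch2, Myo18b and Klhdc8a followed with log2 fold changes of 0.17, 0.35, 0.48 and 0.38, and 86.7% of the exonic bases of Fam219b lie opposite Mpi.

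The other lists held no called gene apart from those described. Of 19 genes of the circadian clock 17 were below 0, as were 50.4% of all genes tested, and the median was −0.09. At an unadjusted p under 0.05 1 of the 19 was lower, against 4.08% of all genes. Without mice 9838 and 5845 0 were lower, against 1.55% of all genes. With all mice, astrocytes had a median of −0.03, oligodendrocytes 0.11, endothelium 0.0042, pericytes 0.09, excitatory neurons −0.05 and interneurons 0.07. Cholesterol synthesis came to 0.11, heat shock proteins to −0.06, the mitochondrial ribosome to 0.11 and sphingolipid metabolism to −0.04. Of the 33 tested genes that the study names, Bdnf was the 1 with an unadjusted p under 0.05, and their median was 0.02. Medians for hippocampal, thalamic, choroid plexus, meningeal and red blood cell markers were 0.16, 0.03, 0.17, 0.12 and −0.14, those for the ATF4 response and for matrix metalloproteinases both 0.02.

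Among 20 measures of the libraries, 0 differed at an adjusted p under 0.05 by exact permutation of the 23 mice, and 2 had an unadjusted p under 0.05. The share of reads not mapped was 10.4% ± 3.74 (SD, n = 15) in treated and 16.99% ± 5.67 (SD, n = 8) in untreated mice (2-sided exact permutation p = 0.00277, adjusted p = 0.0555). Without mice 9838 and 5845 the untreated mean was 14.2% and the exact permutation p 0.0427 (adjusted p = 0.644). Reads on several genes came to 1.28% ± 0.09 and 1.17% ± 0.07 (exact permutation p = 0.0105, adjusted p = 0.105), with an exact permutation p of 0.0644 without that pair. Their part in the gene values was not tested.

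The hippocampus of the same mice repeated calls on pseudogenes and mitochondrial messages. Of 17843 genes tested there, 25 fell (0.14%) and 0 rose, and the 25 were 23 pseudogenes and 2 mitochondrial messages. Of these, 24 were also called in the cortex, which is 55.8% of the cortex calls and 96.0% of the hippocampus calls. Only 37 of the 43 cortex calls were tested in the hippocampus. The mice 9838 and 5845 were high in both tissues. Without this pair 0 genes were called. Iqgap2 had a log2 fold change of −0.03 (unadjusted p = 0.786) in the hippocampus, where its mean was 138.1 CPM in untreated and 135.5 CPM in treated mice, and Egr3 had −0.19 (unadjusted p = 0.0114, adjusted p = 0.271). Homer1 had −0.19 and Plin4 −1.36 (adjusted p = 0.0910). The difference between the tissues was not tested.

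In SS mice of the same number ranges, 12 with RSD and minocycline and 6 untreated, the same contrast called 0 of 17837 cortical genes (0.0%) by the quasi-likelihood test of edgeR, with 1303 at an unadjusted p under 0.05 and 9 called by DESeq2. None of the libraries with high counts of the pseudogenes and mitochondrial messages was among these 18. Egr3 had 102 ± 31.2 CPM (SD, n = 12) in treated and 189.9 ± 60.4 CPM (SD, n = 6) in untreated SS mice, which is −0.89 ± 0.20 on the log2 scale (adjusted p = 0.622). For Iqgap2 the levels were 30.7 ± 7.07 and 41.4 ± 5.88 CPM and the log2 fold change −0.43 ± 0.16 (adjusted p = 0.622). Homer1, Nptx2 and Fosb had −0.64, −0.58 and −0.73. These values were below 0 in both genotypes. In SS mice none of them was called by this test, and DESeq2 called Egr3 (adjusted p = 0.0487).

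The difference of the contrast between AA and SS mice was tested directly. Of 18860 genes 0 were called (0.0%) by the quasi-likelihood test of edgeR, with 603 at an unadjusted p under 0.05 and 1 called by DESeq2, mt-Atp8, which was high in mice 9838 and 5845. The difference was 0.14 ± 0.26 for Egr3 (unadjusted p = 0.608) and −0.08 ± 0.17 for Iqgap2 (unadjusted p = 0.625). For Pde10a, which was higher in treated SS mice by 0.50, it was −1.10 ± 0.32 (unadjusted p = 0.00148, adjusted p = 0.506). Sgk1 had −0.84 ± 0.33 (unadjusted p = 0.0145), Plin4 −1.34 ± 0.71 and Fkbp5 −0.46 ± 0.25 (unadjusted p = 0.0785), with a log2 fold change of 0.02 for Fkbp5 in SS mice. This test thus showed a difference between genotypes for no gene.

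**Figure D5:**
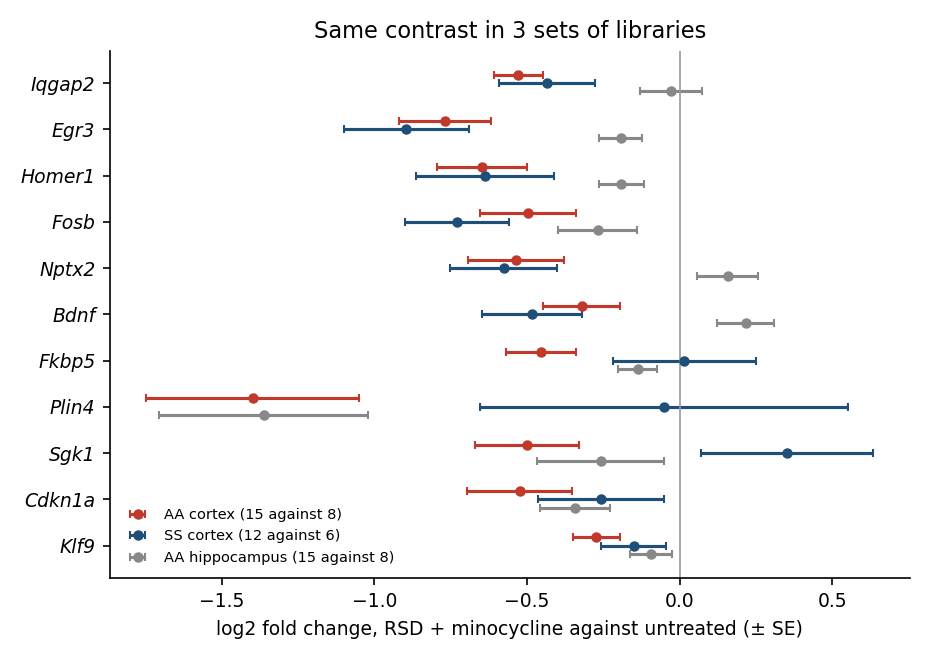
Log2 fold changes ± SE of named genes for RSD + minocycline over untreated mice in the AA cortex (red), the SS cortex (blue) and the AA hippocampus (grey). In this order Egr3 lies at −0.77, −0.89 and −0.19 and Iqgap2 at −0.53, −0.43 and −0.03, while Fkbp5 lies at −0.45 in the AA and 0.02 in the SS cortex.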

How the data were processed

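The authors made directional libraries from polyadenylated RNA, aligned single-end reads to GRCm39 with STAR and deposited raw counts of reads per GENCODE gene, 1 table per tissue. The version of STAR, the annotation release and the strand setting are not given in the sources used here. Each table held 55416 genes, 5111 of them without a symbol, and 4 summary lines, which stayed out of library sizes and tests. In the libraries compared 4.41% to 25.9% of reads did not map, 3.32% to 7.87% mapped to several places and 4.35% to 13.9% fell outside genes. Reads on genes came to 19519114 to 83512852 per library, and counting error was not compared with the spread between mice. In all, 3 table columns matched no library with a known group and were not used. Of the genes, 98.8% matched a GENCODE vM39 annotation of GRCm39, which gave positions, overlaps and sequences.

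The tests were run with edgeR 4.0.16 in R 4.3.3: filterByExpr (minimum count 10, minimum total 15), TMM scaling and the quasi-likelihood test (glmQLFit, glmQLFTest) on the groups compared, with Benjamini-Hochberg adjustment over all genes tested and a threshold of 0.05. The study names edgeR and fits all samples of a genotype together, which was tried as an alternative. CPM use TMM-scaled library sizes, and log2 CPM a prior count of 2. Copies were searched as windows of 50 bases of a gene's longest transcript found in that of another gene, on the same strand. On simulated counts for the cortex comparison (18039 genes, 200 changed), the test recovered 51% of 1.5-fold and 73% of 2-fold changes and called 6 unchanged genes, and DESeq2 1.42.0 recovered 52% and 75% and called 20. Library measures were compared by exact permutation of the 23 mice.

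The members and gene lists were chosen with earlier results of these data known, and no list was tested as a set. Named genes are up to 12 called per direction with the largest change, a mean log2 CPM of at least 1 and a symbol other than a Gm or Rik name, with those of lowest p added, as not called, up to 6 where fewer than 8 were called, then up to 3 called members of each list or its 2 of highest CPM, and the genes the study names. Homer1, Nptx2, Fosb, Fkbp5, Plin4, Sgk1, Cdkn1a, Ptgs2, Trem2, Ifit3, Pde7b, mt-Co2, Gm13341, Gm12892 and AK157302 were chosen after their values were seen. Promoters were to be printed for the list with the largest share of called genes, the mitochondrially encoded messages, which have none in the tables used. A few genes of the rules are not reported here.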

Additional observations from a re-analysis of the deposited data

Results flagged for a closer look

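Among 53 sets of values over the 8 untreated mice, 6 held an outlying mouse by Dixon's test. In these the distance to the nearest neighbour, as a share of the range, exceeded the 95% critical value. Chance marks a few of so many sets. The test looks for a single outlying mouse, so 2 mice that are high together hide each other. Mice 9838 and 5845 were thus not marked for Gm13341, at 225.9 and 251 CPM against at most 5.43 in the other untreated mice. Mouse 9836 had the highest level of Klhdc8a, 22.99 CPM with the next at 17.7, of Ifit3, 8.03 CPM with the next at 5.05, and of the share of reads on several genes, 1.32% with the next at 1.19%. Mouse 5844, the untreated library with Alas2 at 99.0 CPM, had the highest summed CPM of brain endothelium genes, 1087 with the next at 832.9, of striatal genes, 1022 with the next at 570.1, and of red blood cell genes, 598.6 with the next at 470.4.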

How the results depend on the processing

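The count of 43 genes lower in the treated AA cortex rested on the untreated mice 9838 and 5845. Without mouse 9838 it was 1 (Iqgap2), without mouse 5845 it was 0, and leaving out 1 mouse at a time gave 0 to 102. Without 1 of the untreated mice 9839, 5899, 9879, 9836, 5844 and 5900 the calls in both directions were 102, 96, 92, 86 (83 lower), 83 (82 lower) and 82, and without 1 of the treated mice 5838, 5837, 9852, 9878, 5839, 5897 and 5896 they were 26, 26, 26, 27, 28, 21 and 20. The alternatives that follow likewise count both directions. RLE scaling gave 37, DESeq2 57 (55 lower), the number range as a term 38 and the identical library kept 64. The likelihood-ratio test of edgeR gave 149 (145 lower), no filter on low counts 638 (631 lower), the share of reads outside genes as a term 93 (90 lower), leaving out mice 5844 and 5853 65 (64 lower), all libraries in 1 model 714 (705 lower) and no adjustment 1078 (736 lower). Each number range alone gave 0, and the table position as a term 1 (Iqgap2). Alternatives chosen after seeing the data were leaving out mice 9838 and 5845, which gave 0, or 1 (Iqgap2) with the table position as a term. Leaving out mice 9838, 5845, 5844 and 5853 gave 1 with and without that term, again Iqgap2. The earlier columns alone gave 3, Iqgap2 among them, and the later ones 1, Pcdhgb8, which was higher. The cause was not tested. Of 18 alternatives, Iqgap2 was lower in 18 and called in 14, with log2 fold changes of −0.63 to −0.22, and Egr3 was lower in 18 and called in 9. Leaving out 1 mouse at a time kept the call of Iqgap2 in 22 of 23 cases and that of Egr3 in 20, and those of mt-Atp8, mt-Nd4l, AK157302 and mt-Nd3 in 21, 19, 11 and 7.

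In the hippocampus, with 25 calls, DESeq2 gave 84, the likelihood-ratio test 166, no filter 571, leaving out mice 5844 and 5853 38, the identical library kept 66, all libraries in 1 model 715 and no adjustment 2589. The number range, each range alone, the table position, the share outside genes and every alternative chosen after seeing the data gave 0. In the SS cortex DESeq2 gave 9, the likelihood-ratio test 1 (Ttr) and no adjustment 1303, and the later columns alone could not be fitted. For the difference between genotypes the values were 1 (mt-Atp8), 5 (Gm13341, Gm13339, Gm39043, Ttr and mt-Atp8) and 603. All other alternatives for these 2 results gave 0.

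Directions of named genes turned as follows. The log2 fold change of mt-Co2 was 0.0904 without mice 9838 and 5845, 0.0919 with the table position as well, and 0.22 without all 4 libraries, or 0.13 with the position. Trem2 came to −0.0147 in the later columns. The log2 fold change of Csf1r, at −0.01, came to 0.00096 with RLE scaling, 0.0011 with DESeq2, 0.0178 without the filter, 0.0724 in the lower number range, 0.0594 without mice 5844 and 5853, 0.0022 with the identical library, 0.0507 without all 4 libraries and −0.0730 to 0.0709 with 1 mouse left out. Without mice 5844 and 5853 the difference of treated minus untreated mice was −0.41 percentage points for reads outside genes, 62.7 summed CPM for astrocytes and −5.35 for meninges. Of 186 list medians under alternatives 1 moved beyond the spread between mice, that of the metalloproteinases, 0.07 without mice 5844 and 5853. Of the list medians, those of the ATF4 response, brain endothelium and genes the study names turned from above to below 0 without mice 9838 and 5845 (−0.00935, −0.0435 and −0.00389), with the number range as a term and with the table position as a term. The mitochondrially encoded messages turned to above 0 without that pair, and the astrocyte, red blood cell and striatal lists without mice 5844 and 5853. Metalloproteinases and thalamic neurons turned to below 0 with the number range, interneurons to below and RNA quality to above 0 with the table position. No paired analysis was possible because the labels give no replicate numbers that tie mice of the groups together. Intervals and p-values cover the spread between these mice, and genes with few reads or with near-identical copies are the least certain.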
